A study of Drosophila melanogaster with 7 samples.

Results

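Matrix metalloproteinases cut the proteins of the extracellular matrix and some proteins of the cell surface, and tissue inhibitors of metalloproteinases block them. The fly has the enzyme genes Mmp1 and Mmp2 and the inhibitor gene Timp, 3 genes chosen by their names out of the 14804 listed in each main table. Mmp1 is best known for its induction in wounded and tumorous epithelia and Mmp2 as an enzyme held at the cell surface by a lipid anchor. In the fat body, both enzymes are known for loosening the tissue at metamorphosis, when its cells separate from each other and from their basement membrane, and Timp is known to hold this process back.

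The levels come from RNA of fat bodies of wandering larvae, taken without gonads and pooled from 40 larvae per library. Controls were the offspring of Bx-GAL4 and w1118 flies, and RasV12 larvae were the offspring of Bx-GAL4 and UAS-RasV12 flies, with 3 libraries in each group. Bx-GAL4, the driver that both groups carry, is active in wing imaginal discs and salivary glands, so the dominant-active Ras was directed to those organs and the fat body was read as a responding tissue. Sequencing of control replicate 3 gave a run 3A and a shallower run 3B, and 3A was used for it here. Nothing in the labels says that replicates came from separate crosses, so the p-values measure the spread between pools of larvae.

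The defining genes of the larval fat body were abundant. The 8 genes of the list (storage proteins, their receptor and others) summed to 116317 to 174708 scaled FPKM in controls and 67883 to 118641 in RasV12 libraries. The lowest sum was that of RasV12 replicate 2. Lsp1beta, a storage protein gene, was the 1 gene of the list with an unadjusted p under 0.05 in limma (log2 difference -0.79, adjusted p = 0.531), and the list median was -0.44. FPKM is the number of fragments per kilobase of gene model, relative to all mapped fragments of the library, and scaled FPKM is the same after the libraries were brought to a common 75th percentile. The fragments implied by the tables were between 2900626 in control replicate 3 and 7327931 in control replicate 2. In the whole table, limma gave 8 of the 7575 genes tested (0.106%) an adjusted p under 0.05, and 6 genes (0.0792%) passed with a higher level in RasV12. An unadjusted p under 0.05 was reached by 9.4%. All 3 genes of interest passed the filter on a mean FPKM of at least 1, also in the controls alone, and every value rests on more than the floor of 3 fragments. In bulk tissue, fewer cells of a type and less RNA per cell cannot be told apart.

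Timp was the member whose groups did not overlap. It lies on chromosome 3R from 6029597 to 6038710 in the BDGP5 annotation of the tables (FBgn0025879). Control replicates 1 to 3 gave Timp a scaled FPKM of 3.55, 1.65 and 4.75, and RasV12 replicates 1 to 3 gave 11.6, 8.94 and 6.17. Each RasV12 library was therefore above each control, by the least margin between RasV12 replicate 3 and control replicate 3. Those neighbours were within counting error of each other, since the deposited bounds put the former at 4.59 or more and the latter at 7.12 or less. The values rest on 31, 17 and 16 fragments in the controls and on about 76, 112 and 62 in RasV12 libraries.

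The mean level of Timp over controls was 3.32 ± 1.56 (SD, n = 3), and that over RasV12 libraries was 8.92 ± 2.74 (SD, n = 3), a ratio of 2.69. As log2(scaled FPKM + 1), where adding 1 shrinks the differences of weakly expressed genes, the groups differed by 1.23 (standard error 0.34, 95% interval 0.42 to 2.04). Limma gave it an unadjusted p of 0.00912 and an adjusted p of 0.394 with Benjamini-Hochberg adjustment over all genes, so it was not called. Among all genes tested, 5.29% had an unadjusted p under 0.05 with a higher level in RasV12, and 7.67% had every RasV12 library above every control, while 7.08% had every RasV12 library below. With run 3B in place of run 3A the groups overlapped, because that shallow run lists Timp at a scaled FPKM of 6.89, which rests on 2 fragments.

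Timp lies inside the span of Syn, the gene of the synaptic vesicle protein Synapsin (3R, 6016411 to 6047805). In the newer BDGP6 annotation, the genes are on opposite strands and share 249 bases of exon. Syn was listed at 0 in the 3 controls and in RasV12 replicate 2, and at a scaled FPKM of 0.907 and 0.321 in RasV12 replicates 1 and 3. The labels do not say whether the libraries kept the strand, and fragments from the shared bases could belong to either gene. The Syn level was below that of Timp in all 6 libraries.

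**Figure D1:**
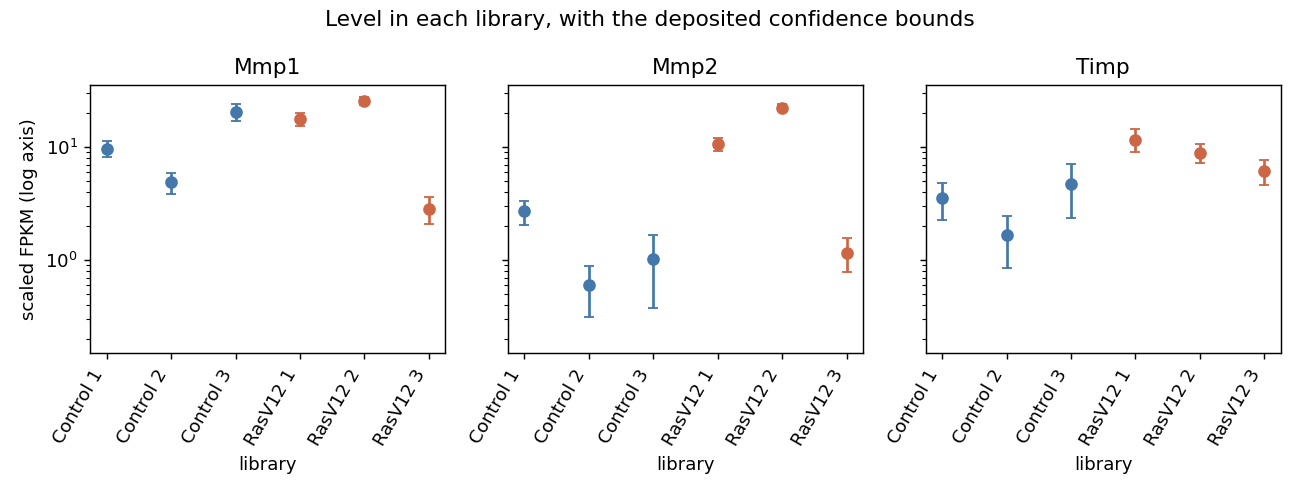
Scaled FPKM (log axis) of Mmp1, Mmp2 and Timp in the 3 control libraries (blue) and the 3 RasV12 libraries (orange), with vertical bars for the deposited confidence bounds, which cover counting error within a library. Timp is higher in each RasV12 library (6.17 to 11.6) than in each control (1.65 to 4.75), whereas RasV12 replicate 3 lies among the controls for Mmp2 and below them for Mmp1.

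Mmp2 had the widest range of the 3 genes, and its high values were in RasV12 replicates 1 and 2. It spans 72713 bases of chromosome 2R, from 5498644 to 5571356 (FBgn0033438). The scaled FPKM of Mmp2 was 2.69 in the first, 0.598 in the second and 1.02 in the third control, against 10.6, 22.3 and 1.17 in RasV12 replicates 1 to 3. The first and second RasV12 libraries were above each control, and the third was below control replicate 1 and within the deposited bounds of control replicate 3. The lowest and the highest library differed by 37.3-fold. The controls rest on 69, 18 and 10 fragments and the RasV12 libraries on 213, 813 and 36, so the distance between the RasV12 libraries is far above counting error.

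Mmp2 averaged 1.44 ± 1.11 (SD, n = 3) over the controls against 11.4 ± 10.6 (SD, n = 3) over RasV12 libraries, a ratio of 7.90 that comes from RasV12 replicates 1 and 2. The log2 difference was 1.87 (standard error 0.85, 95% interval -0.17 to 3.91), with an unadjusted p of 0.0663 and an adjusted p of 0.561 from limma. With this spread among RasV12 libraries, the difference did not pass the test. Without RasV12 replicate 3 the difference was 2.84 (unadjusted p = 0.000821, adjusted p = 0.0684 from limma). That fit gave 1267 of 7592 genes an unadjusted p under 0.05, against 712 of 7575 with all 6 libraries. Without RasV12 replicate 2 the difference of Mmp2 was 1.12 (adjusted p = 0.93 from limma). The pattern of Mmp2, with RasV12 replicates 1 and 2 above every control and RasV12 replicate 3 below the highest control, was shared by 762 of the 7575 genes tested (10.1%).

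Mmp1 was the most abundant of the 3 genes in 5 of the 6 libraries, and its groups overlapped fully. It lies on chromosome 2R from 20558817 to 20574897 (FBgn0035049). For Mmp1, the scaled FPKM of control replicates 1 to 3 was 9.67, 4.90 and 20.4, and that of RasV12 replicates 1 to 3 was 17.7, 25.5 and 2.85. RasV12 libraries thus gave both the highest and the lowest value. The values rest on about 149, 91 and 131 fragments in controls and on 227, 589 and 55 in RasV12 libraries.

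Mmp1 averaged 11.7 ± 7.96 (SD, n = 3) over the controls against 15.4 ± 11.5 (SD, n = 3) over RasV12 libraries. The log2 difference of 0.17 (standard error 0.79, adjusted p = 0.958 from limma) had a 95% interval from -1.73 to 2.07, so that a rise or a fall of 3-fold on this scale would both lie within it. Its sign rests on single libraries. The difference was -0.38 without RasV12 replicate 2, -0.13 without RasV12 replicate 1, -0.29 without control replicate 2 and 1.01 without RasV12 replicate 3. Mmp1 overlaps Pof, the gene of the protein that paints the fourth chromosome, by 225 bases, and Pof had a scaled FPKM of 2.62 to 7.51 with its own highest value in RasV12 replicate 2. The span of Mmp2 holds the microRNA gene mir-307 and a tRNA gene, both listed at 0 in all 6 libraries.

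**Figure D2:**
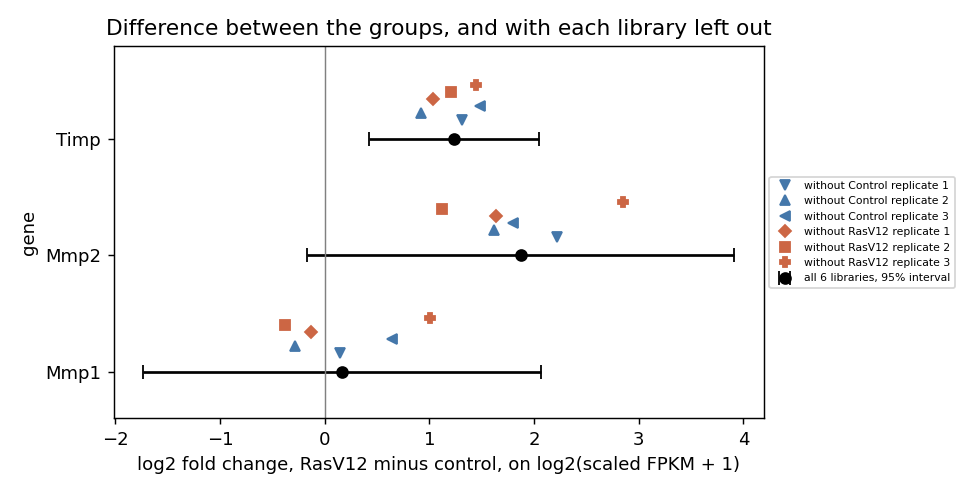
Difference between RasV12 and control libraries on the log2(scaled FPKM + 1) scale for each gene, with black points and bars for all 6 libraries and their 95% interval, and coloured symbols for the estimate with 1 library left out (blue for a control, orange for a RasV12 library). Timp stays between 0.92 and 1.48, Mmp2 between 1.12 and 2.84, and Mmp1 falls on both sides of 0.

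The 3 genes were ordered differently across the libraries. From high to low, Mmp1 ran RasV12 2, control 3, RasV12 1, control 1, control 2 and RasV12 3. Of these neighbours, the first 3 libraries overlapped in their deposited bounds and the later steps did not. Mmp2 ran RasV12 2, RasV12 1, control 1, RasV12 3, control 3 and control 2, and its last 3 libraries were those whose neighbours overlapped. Timp ran RasV12 1, RasV12 2, RasV12 3, control 3, control 1 and control 2, and each of its neighbours overlapped. Control replicate 2 was among the 2 lowest libraries for all 3 genes.

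Replicates of a group scattered more for these genes than for most. The SD of log2(scaled FPKM + 1) within the RasV12 group was 1.76 for Mmp2 and 1.48 for Mmp1, above 97.6% and 96.1% of the genes tested, whose median was 0.24. For Timp it was 0.41, above 74.7% of the genes. Among the controls it was 0.93 for Mmp1, 0.62 for Mmp2 and 0.57 for Timp, against a median of 0.22 over all genes.

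Ratios within a library do not depend on how libraries are scaled to each other, and FPKM are per length, so the enzymes were set against the inhibitor and against each other. The FPKM of Mmp1 was 2.72, 2.96 and 4.30 times that of Timp in controls and 1.52, 2.86 and 0.462 times in RasV12 libraries. The groups overlapped, and the mean log2 ratio of RasV12 minus control libraries was -1.37 (two-sided exact permutation test over 20 assignments, p = 0.2). RasV12 replicate 3 was the only library with more Timp than Mmp1. The FPKM of Mmp2 was 0.758, 0.362 and 0.214 times that of Timp in controls and 0.910, 2.49 and 0.189 times in RasV12 libraries, so that RasV12 replicate 2 alone had more Mmp2 than Timp (difference of the mean log2 ratio 0.96, exact p = 0.5). Mmp1 exceeded Mmp2 in every library, by 3.59, 8.19 and 20.1 times in controls and by 1.67, 1.15 and 2.44 times in RasV12 libraries.

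The ratio of Mmp1 to Mmp2 was the comparison of the 3 in which the groups did not overlap. Its geometric mean was 8.39 in controls and 1.67 in RasV12 libraries, a log2 difference of -2.33. The exact two-sided permutation p was 0.1, the smallest that 3 libraries against 3 can give, and 0.3 after Benjamini-Hochberg adjustment over the 3 ratios. This permutation test therefore could not pass a threshold of 0.05 with 3 libraries against 3.

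**Figure D3:**
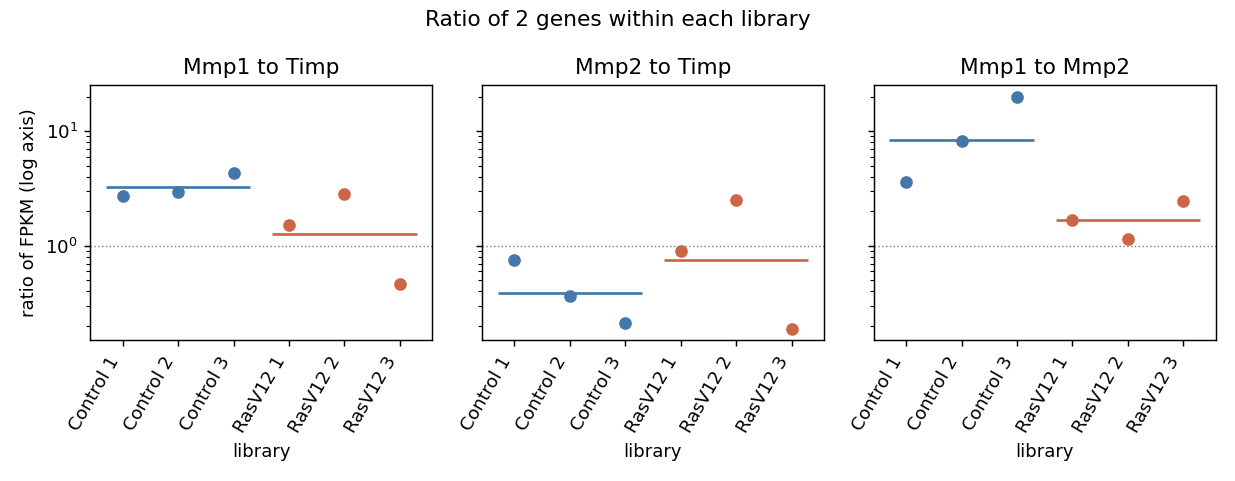
Ratio of the FPKM of a pair of genes within each library (log axis), with points for the 3 control (blue) and 3 RasV12 (orange) libraries, lines for the geometric mean of each group and a dotted line at a ratio of 1. The ratio of Mmp1 to Mmp2 is lower in each RasV12 library (1.15 to 2.44) than in each control (3.59 to 20.1), and the other ratios overlap.

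Genes with the most similar course over the 6 libraries were taken as those with the smallest root mean square difference of the deviations of log2(scaled FPKM + 1) from the gene's own mean. For Mmp1 these were the tetraspanin gene Tsp96F (0.25), the cuticle protein gene Cpr65Ay (0.28) and CG2201 (0.28). For Mmp2 they were CG17739 (0.30), CG34236 (0.32) and CG8850 (0.33). For Timp they were CG17224 (0.16), nimC3 of the Nimrod family of phagocytosis receptors (0.16) and CG8358 (0.17). The members were farther from each other, at 1.05 for Mmp1 and Mmp2, 0.89 for Mmp1 and Timp and 0.98 for Mmp2 and Timp. These distances are descriptions over 6 libraries and carry no test.

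Since the steroid hormone ecdysone sets the time of fat body remodelling, the members were read beside 12 genes of the ecdysone response, of which 10 were tested. None had an unadjusted p under 0.05 in limma, and the median log2 difference was -0.06 against 0.00 over all genes. The largest was 0.30 for ftz-f1, the nuclear receptor of the prepupal period, and the smallest -0.17 for ImpL2, an ecdysone-inducible secreted protein that binds insulin-like peptides. The remaining pair, Eip93F and ImpE1, fell below the filter. Eip93F, a transcription factor gene of the prepupal and pupal stages, was at 0.147, 0.141 and 0 scaled FPKM in controls and, without overlap, at 1.31, 2.12 and 0.786 in RasV12 libraries, which rest on 15 and 222 fragments in all. ImpE1, an ecdysone-inducible membrane protein gene, was at a mean of 0.12 in controls and 0.552 in RasV12 libraries, with overlap. The order of the libraries in part of this list was like that of Mmp1. Eip78C, a nuclear receptor gene, had control values of 30.6, 17.2 and 49.6 scaled FPKM beside 50.1, 50.9 and 13.4 for RasV12 replicates 1 to 3. The nuclear receptor gene Hr46 had 5.34, 1.30 and 3.28 beside 5.05, 7.79 and 0.634. For Mmp1 and for br, Eip75B, Hr46, Hr39 and Eip78C, 5 of the 10 ecdysone genes tested, control replicate 2 and RasV12 replicate 3 were the 2 lowest libraries. Of all genes tested, 11.7% had these libraries lowest. This pattern was picked after the values were seen and was not tested. All 5 had overlapping groups.

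**Figure D4:**
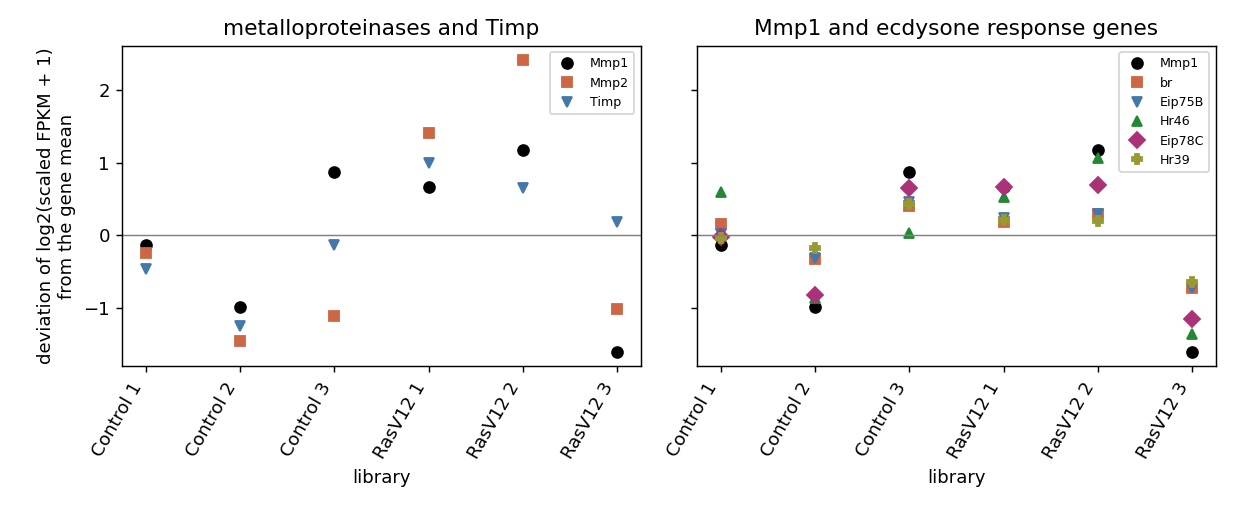
Deviation of log2(scaled FPKM + 1) from the mean of each gene over the 6 libraries, on the left for Mmp1, Mmp2 and Timp and on the right for Mmp1 beside 5 ecdysone response genes that share its 2 lowest libraries. Control replicate 2 and RasV12 replicate 3 lie below 0 for all genes of the right panel, whereas Timp lies above 0 in the 3 RasV12 libraries and below it in the controls.

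The matrix on which the enzymes act was followed with 12 basement membrane genes, of which 11 were tested. In limma's test 4 had an unadjusted p under 0.05 with a higher level in RasV12 and 1 with a lower level, where all genes gave 5.29% and 4.11%. None passed after adjustment. Of the 4, Ndg and mp averaged under 1 in the controls and entered the test through their RasV12 levels, so their count is no support, and among the 9 genes at 1 or more in the controls 2 were higher and 1 was lower. Ndg, the gene of the linker protein Nidogen, had control values of 0.772, 1.34 and 0.732 scaled FPKM beside RasV12 values of 4.57, 9.30 and 13.2 (log2 difference 2.27, standard error 0.36, adjusted p = 0.147). The groups of Ndg did not overlap, and unlike Mmp1 and Mmp2 it was highest in RasV12 replicate 3. The differences were 1.23 for Pxn (peroxidasin), 0.88 for mp (Multiplexin, a collagen) and 0.63 for Ppn (papilin), each without overlap. By comparison, 7.67% of all genes tested had every RasV12 library above every control and 7.08% had every one below. The lack of overlap of Ndg and mp is likewise no support. In contrast trol, the perlecan gene, had 455, 393 and 338 in controls and 237, 267 and 306 in RasV12 libraries (log2 difference -0.55, adjusted p = 0.491). The collagen IV genes vkg and Cg25C had log2 differences of -0.65 and -0.51 with overlapping groups, and their levels, at group means from 117 to 419 scaled FPKM, were well above those of Mmp1, Mmp2 and Timp. The list median was 0.04.

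Among cell surface proteins known to be cut by fly metalloproteinases, NijA, the Ninjurin that Mmp1 sheds, had control values of 5.98, 4.95 and 17.1 scaled FPKM beside RasV12 values of 29.1, 24.4 and 10.1 (log2 difference 1.17, adjusted p = 0.561). RasV12 replicate 3 lay below control replicate 3, so the groups overlapped. The glypican gene dlp had 1.04, 1.11 and 1.36 in controls and 2.44, 2.66 and 1.95 in RasV12 libraries (log2 difference 0.62, unadjusted p = 0.0359, adjusted p = 0.531 from limma), the 1 gene of these 3 with an unadjusted p under 0.05. Over all genes tested, 5.29% reached this threshold with a higher level in RasV12. The E-cadherin gene shg had group means of 12.3 and 14.9 and, like Mmp1, its lowest value in RasV12 replicate 3, at 5.24.

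Of 10 further metalloproteinases and regulators, 8 were matched and 5 tested, with no unadjusted p under 0.05. The ADAM gene kuz had a log2 difference of 0.06 (95% interval -0.31 to 0.43) and the furin gene Fur1, of a family of proteases that activate secreted proenzymes, one of 0.16 (-0.12 to 0.44), although its 3 RasV12 libraries were above the controls. Reck, whose mammalian counterpart is an inhibitor of metalloproteinases at the cell surface, had 2.48, 6.21 and 3.98 in controls and 5.65, 3.60 and 11.7 in RasV12 libraries (log2 difference 0.54), with overlap. The lowest difference was -0.65 for the furin gene Fur2, and the list median was 0.16. Of 10 genes of the JNK route, a kinase cascade that drives Mmp1 in epithelia, none had an unadjusted p under 0.05 with a higher level and 1 had a lower level. All genes tested gave 5.29% and 4.11%. The lower gene was egr, the TNF-like ligand, with 119, 126 and 94.5 in controls and 79.9, 56.7 and 84.8 in RasV12 libraries (log2 difference -0.62, adjusted p = 0.485 from limma). Every RasV12 library was below every control for egr and above every control for wgn, where all genes gave 7.08% and 7.67%. The control mean of wgn was under 1. The phosphatase gene puc, a common readout of JNK activity, had a log2 difference of -0.12 (95% interval -0.55 to 0.30), and the list median was -0.05.

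**Figure D5:**
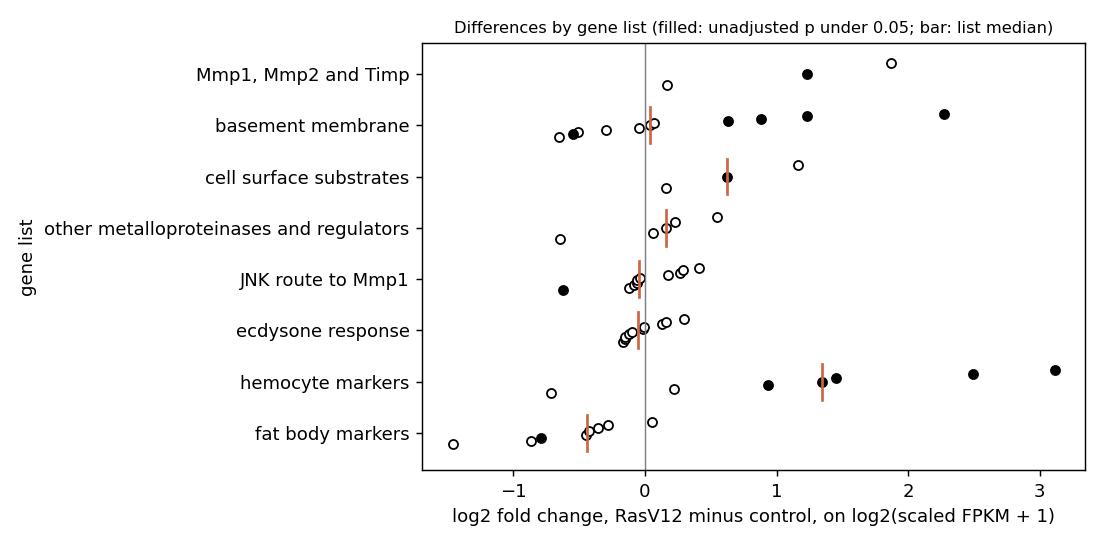
Log2 difference between RasV12 and control libraries for Mmp1, Mmp2, Timp and the tested genes of 7 lists, with filled points for an unadjusted p under 0.05 in limma, open points for the rest and an orange bar at each list median. Ndg at 2.27 is the highest basement membrane gene, and the genes of the JNK and ecdysone lists lie between -0.62 and 0.41. Of the 7 hemocyte markers tested 5 are filled, where 5.29% of all genes passed with a higher level in RasV12. Ndg, mp, He and Hml averaged under 1 in the controls and entered the test through their RasV12 levels.

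Markers of other cells were read because hemocytes, too, can express matrix genes and metalloproteinases. Of 12 hemocyte names 11 were matched and 7 tested. In limma 5 of these had an unadjusted p under 0.05 with a higher level in RasV12, where all genes gave 5.29%. None passed after adjustment. The list median was 1.34 against 0.00 over all genes, and 0.22 without the filter on low values. Of the 5, He and Hml were listed at 0 in all controls and in 1 RasV12 library each and entered the test through the RasV12 libraries, so their count is no support. Among the 5 tested genes that averaged 1 or more in the controls, 3 were higher at this threshold. The receptor gene eater of plasmatocytes had control values of 0.763, 1.39 and 2.65 beside RasV12 values of 4.86, 9.95 and 3.93, and Sr-CI had 2.21 to 2.87 beside 4.66 to 7.97, both without overlap. The phagocytosis receptor gene nimC1 had a log2 difference of 1.34 (adjusted p = 0.513) and overlapped. The gene crq had 46.9, 51.0 and 53.2 beside 56.2, 59.5 and 61.2, without overlap (log2 difference 0.22, adjusted p = 0.61 from limma). Among all genes tested, 7.67% had every RasV12 library above every control. The remaining markers were lower, uneven or near 0. The prophenoloxidase gene of crystal cells PPO2 (CG8193 in the tables) had 5.24, 44.9 and 14.4 beside 1.14, 5.70 and 68.2, a log2 difference of -0.72, and the lamellocyte genes CG42640 (PPO3) and CG6579 (atilla), below the filter, had higher means in controls. Few fragments underlie the means of these lamellocyte genes, with 9, 10 and 3 beside 2, 6 and 9 for PPO3. For atilla there were 0, 3 and 1 beside 1, 2 and 0, so its direction is at the floor. Summed over the list, the level was 56.4 to 103 in controls and 96.0 to 153 in RasV12 libraries, so the groups overlapped. This overlap depended on PPO2. Without PPO2 the sums of control replicates 1 to 3 were 51.13, 58.52 and 63.96. Those of RasV12 replicates 1 to 3 were 94.86, 130.56 and 85.14, without overlap. The sums without PPO2 still include He and Hml, and their difference was not tested.

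The testis list summed to at most 9.34 in controls and to 13.4 to 236 in RasV12 libraries, with its highest sum in RasV12 replicate 2, where Mmp1 and Mmp2 were also highest and the fat body list lowest. Of its 12 genes tested, 10 averaged under 1 in the controls and entered the test through the RasV12 libraries, so that no count over this list is support. The 2 genes with an unadjusted p under 0.05 were the sperm protein genes Mst87F (1.58 and 22.4 on average) and Mst84Da (listed at 0 in all controls and at 2.55, 36.6 and 5.57 in RasV12 libraries). Salivary glue genes summed to 7.40 to 23.7 in controls and 7.36 to 11.7 in RasV12 libraries, and Sgs5 was lower with a log2 difference of -0.69 (adjusted p = 0.421 from limma). Imaginal disc genes summed to 51.6 to 62.5 and 49.3 to 62.9, nearly all from ap and ci, and the log2 differences ran from -0.10 for ap to 0.60 for sd. The disc genes Dll, vg, wg and nub, below the filter, were highest in RasV12 replicate 1, at 1.09, 0.218, 0.146 and 0.0968. These values rest on 10 fragments or fewer. In controls the 4 genes were at 0, apart from Dll at 0.0675 in control replicate 2. Muscle genes summed to 26.1 to 72.4 and 6.17 to 30.6, with differences from -1.21 for Act57B to -0.51 for up. Tracheal genes summed to 2.16 to 5.14 and 2.16 to 7.04, with -0.15 for verm and -0.05 for serp. The part of hemocyte, testis or other RNA in the levels of Timp, Mmp1 and Mmp2 was not tested.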

How the data were processed

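Paired reads were mapped by the authors with TopHat 1.0.14, duplicates were removed, and gene FPKM with confidence bounds were deposited as made by Cufflinks 0.0.5 on the Ensembl annotation of BDGP5. Starts are printed from 1, after adding 1 to the starts in the tables. Of control replicate 3, run 3A was used. The table labelled as merged equals run 3A times 0.770 (within 0.005) for 93.6% of the 6869 genes above FPKM 1. Fragments were worked out from the bounds as the square of 2 times FPKM over the upper half-width. Bounds cover counting error only.

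Libraries were scaled to their mean 75th percentile over genes above 0, and log2(scaled FPKM + 1) was tested with limma 3.58.1 (R 4.3.3; lmFit, eBayes with trend) wherever the FPKM averaged 1 or more over the 6 libraries, and p-values were adjusted over those 7575 genes (Benjamini-Hochberg). The same test was run on simulated libraries with a common spread for all genes, below the average spread within groups here, and with large planted changes. That run checked the code and gives no error rate for these data. Ratios used exact permutation tests. The 12 lists hold 104 names, of which 101 were matched, 9 through newer annotations. Members and lists were chosen with earlier results of these data known. Named were the members, list genes with an unadjusted p under 0.05 or, where a list had none, its largest and smallest difference, overlapping genes and the 3 nearest patterns; other list genes were named after their values were seen. Alternatives changed the pseudocount, filter, scaling, run of control replicate 3 or eBayes, included the replicate number as a block, or dropped single replicates. The authors' Cuffdiff comparisons were not used here, and no sequences were printed.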

Additional observations from a re-analysis of the deposited data

Results flagged for a closer look

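Run 3B of control replicate 3, which entered the comparisons only as an alternative to run 3A, gave Timp a scaled FPKM of 6.89, above the 3 controls used (at most 4.75) and above RasV12 replicate 3 (6.17). It rests on 2 fragments, with deposited bounds on the unscaled FPKM from 0 to 12.7, and the run holds 855836 fragments.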

How the results depend on the processing

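In none of the 16 alternatives did Mmp1, Mmp2 or Timp reach an adjusted p under 0.05 in limma. Timp kept a higher level in RasV12 in all of them, from 0.74 with 5 added to the FPKM to 1.47 with 0.1 added, and from 0.92 to 1.48 with single replicates left out, with unadjusted p from 0.00342 to 0.0395 and adjusted p from 0.134 to 0.857. Mmp2 also kept its direction, from 1.11 to 2.37 and, leaving out replicates, from 1.12 to 2.84 (adjusted p from 0.0684 to 0.93). Mmp1 ran from 0.14 to 0.38 under other settings and from -0.38 to 1.01 when single replicates were left out, turning negative without control replicate 2 (-0.29), RasV12 replicate 1 (-0.13) or RasV12 replicate 2 (-0.38). No scaling moved the median log2 difference of all genes to 0.20. The ratios kept their direction in 10 alternatives each, with differences when leaving out replicates of -1.96 to -0.65 for Mmp1 to Timp, 0.09 to 1.95 for Mmp2 to Timp and -2.94 to -1.70 for Mmp1 to Mmp2.

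The 8 genes called became 12 with a pseudocount of 0.1, 11 with robust eBayes, 5 with a pseudocount of 5, 5 with run 3B and 3 with the replicate block, and 5 to 61 leaving out single replicates, with 61 without RasV12 replicate 3. The deviations of same-numbered libraries correlated at 0.09, -0.17 and -0.15. The highest correlation between a control and a RasV12 library was 0.35, for control replicate 2 and RasV12 replicate 3. Deviations from a mean of 3 libraries depend on each other, so a common effect of the replicate number is neither shown nor excluded. With 3 libraries per group, these values cannot tell whether same-numbered libraries were prepared together. In the fit with the block, the difference of Timp had an adjusted p of 0.689, that of Mmp2 0.701 and that of Mmp1 0.974. The medians of the hemocyte and testis lists moved most, from 0.22 to 1.80 and from 0.61 to 3.33. The hemocyte median was 0.22 with no filter or with a mean FPKM of at least 5, which changes the genes included, and 1.80 with a pseudocount of 0.1. The testis median was 0.61 with a pseudocount of 5 and 3.33 with 0.1. The causes of these shifts were not tested. Depth limits Timp and Mmp2 in controls, where values rest on 10 to 69 fragments.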
